A study of Homo sapiens with 4 samples.

Results

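Heat shock proteins and their co-chaperones were followed through the RNA of the established human glioblastoma cell line U87 MG in which PELP1 had been silenced. The genes were taken by name: symbols of the HSP70 (HSPA), cytosolic HSP90, small heat shock protein (HSPB), mitochondrial chaperonin, J-protein (DNAJ) and BAG families and the heat shock factors HSF1 and HSF2. The ER genes HSPA5, HSPA13, DNAJB9, DNAJB11 and DNAJC3 and all symbols with a hyphen were left out. The rule found 82 of the 23228 gene symbols in the files, and no measured value entered it. A cytosolic set is not what it gives in full: 10 members are known to work in mitochondria, 8 at or in the ER, and 8 are annotated as pseudogenes.

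Cytosolic HSP70 and HSP90 are ATP-driven chaperones that hold and release unfolded or immature proteins. J-proteins bring clients to HSP70 and start its ATP hydrolysis, and HSP110 and many BAG proteins release its nucleotide. Small heat shock proteins hold unfolding clients without ATP. HSF1 is the transcription factor that raises many of these genes when unfolded proteins build up, by binding heat shock elements in their promoters, and many tumour cells depend on it and on HSP90.

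Both groups were U87 cells transfected with an siRNA, a small RNA duplex that leads to the cutting of mRNAs it pairs with: 2 libraries received control siRNA and 2 received PELP1 siRNA. Total RNA was taken 72 hours after transfection and read as 50-base single-end reads. PELP1 is a scaffold protein of nuclear receptor and ribosome assembly complexes. The sequences of the siRNAs were not used here, and the labels name only duplicates of 1 cell line, so p-values measure only the spread between these libraries, which may be technical. Gene counts per library ranged from 18670162 to 22858988. PELP1 held 73.9 and 78.0 CPM in the control libraries and 15.2 and 17.7 CPM after its own siRNA, where CPM is a count scaled to the size of its library, and its level fell by 78.4% (log2 change -2.21, SE 0.097, adjusted p = 8.34e-14). Markers of mesenchymal glioma cells were abundant, with VIM at 5607 to 7137 CPM, while the astrocyte marker GFAP held 1.22 to 1.84 CPM and AQP4 and ALDH1L1 had no count in any library. The 6 mesenchymal markers summed to 16696 to 16743 CPM in the control and 13884 to 14145 CPM in the PELP1 siRNA libraries. Among them the mean of TNC went from 2792 to 2950 CPM, while the others fell. The 3 neuronal markers (SNAP25, SYT1 and RBFOX3) summed to 62.4 to 65.2 and 49.3 to 51.1 CPM. The mean of SNAP25 fell from 48.3 to 31.2 CPM, that of SYT1 went from 15.5 to 18.8 CPM, and RBFOX3 was near 0. The part of these markers in the results was not tested. Of the leukocyte markers only CD68 was above 1 CPM, and the astrocyte, epithelial, endothelial and oligodendrocyte lists each summed to at most 3.11 CPM. Of 13234 genes tested across the whole table, 1712 were higher and 1980 lower with PELP1 siRNA (edgeR's quasi-likelihood test, Benjamini-Hochberg adjusted p under 0.05).

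Chaperone genes changed in both directions. HSP90AA1, HSP90AB1, DNAJC7 and HSPB8 were among those that fell, HSPA2 rose, and HSPA8, HSPD1, DNAJA1 and DNAJB1 did not pass the threshold. Of the 82 members, 68 had enough counts to be tested: 4 were higher and 9 lower, and 55 missed the threshold. That is 19.1% of the members tested, against 27.9% of all genes tested. By direction, 5.88% of the members and 12.9% of all genes were higher, and 13.2% of the members and 15% of all genes were lower. The median log2 fold change was -0.045 for the members and 0.00088 for all genes tested. All 13 changed members had libraries of 1 group entirely above those of the other. The libraries did not overlap in 63.2% of the members tested, against 64.2% of all genes tested. Only DNAJC7 was both called and changed by at least 1.5-fold, and 52 of the 68 members lay within 0.25 of no change on the log2 scale.

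The count depends on scaling and on single libraries. Scaled by total counts alone, 7 members were higher and 6 lower in place of 4 and 9, and all genes were 2272 higher and 1597 lower. Leaving out 1 library moved the calls of the members and those of all genes tested in the same direction. Fewer passed the threshold without either control library, and more passed it without either PELP1 siRNA library. DNAJC7, HSPB8 and HSPA2 were called under the main settings and all 12 alternatives.

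**Figure D1:**
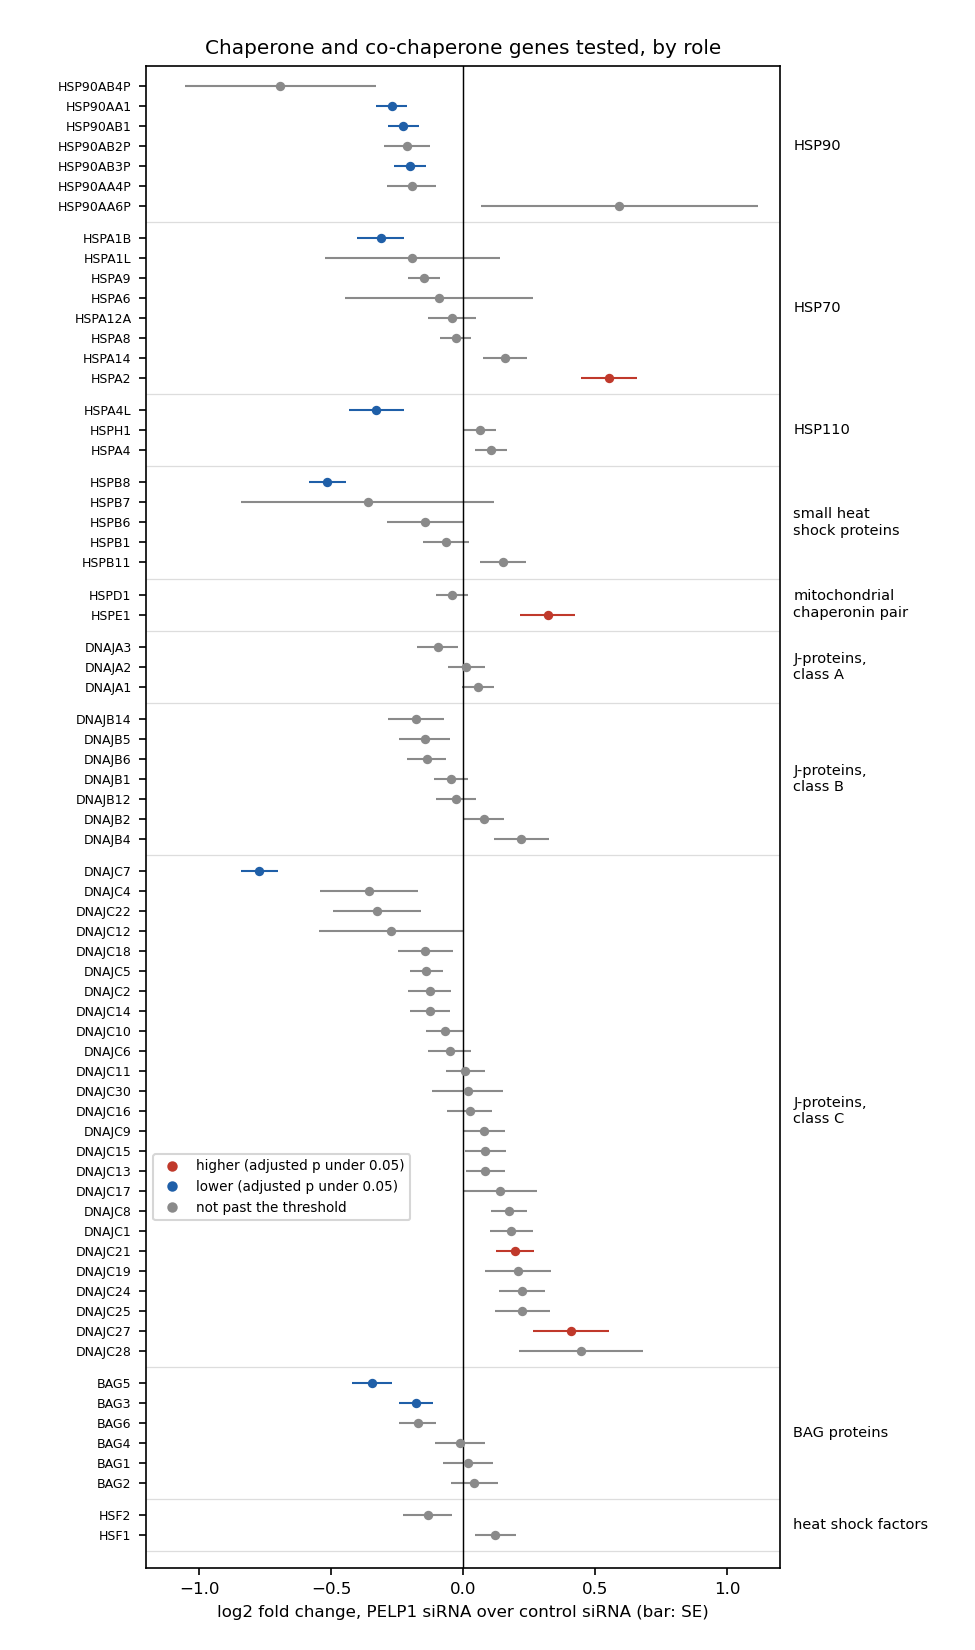
Log2 fold change of PELP1 siRNA over control siRNA (x axis) for the 68 members tested, one row per gene and grouped by role. HSPB11 (IFT25 in GENCODE) is placed with the small heat shock proteins by its symbol alone. Points are the fitted values and bars their SE; blue marks the 9 members lower, red the 4 higher and grey the 55 that did not pass an adjusted p of 0.05.

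The largest change belonged to DNAJC7, a J-protein with tetratricopeptide repeats that binds both HSP70 and HSP90 and is known to pass clients between them. DNAJC7 (GRCh37 chromosome 17, 40128439 to 40173394, minus strand) held 131.4 and 131.1 CPM in the control libraries and 76.4 and 77.4 CPM in the PELP1 siRNA libraries. The groups lay far apart next to the spread within each. Its level fell by 41.4%, or -0.77 on the log2 scale (SE 0.071, adjusted p = 1.79e-08), and the adjusted p stayed at or below 9.29e-07 under every alternative. In a bulk sample, fewer cells with the transcript and less of it per cell cannot be told apart. Of its exon bases, 3.71% overlap NKIRAS2 on the opposite strand, and the counting is not stated to use strand.

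The 3' UTR of DNAJC7 carries a 7-base word that is also in the PELP1 mRNA. An earlier analysis of these same fold changes had picked out CTCAGTT and GCCTTGA as words common in the 3' UTRs of fallen genes, so their presence is a description of the transcript and no independent evidence. They are shown here because the most changed member holds 2 copies of CTCAGTT in a 3' UTR of 301 bases. The sites below are read 5′ to 3′ on the transcript, from GRCh37, with the word in capitals. The first 2 lines give coding sites in PELP1 exons 2 and 6. Not shown are a coding GCCTTGA in PELP1 exon 15 and another in DNAJC7 exon 11.
PELP1, chr17:4594676-4594702, minus strand: taatgcacgtCTCAGTTccatcaaaac
PELP1, chr17:4580055-4580081, minus strand: tagggtggatGCCTTGAgccctcagct
DNAJC7, chr17:40128695-40128721, minus strand: tgcagattcaCTCAGTTtaatcttgaa
DNAJC7, chr17:40128616-40128642, minus strand: gtttcgttttCTCAGTTggatgccctg
BAG5, chr14:104024826-104024852, minus strand: gttctgaagtGCCTTGAgaacatgtgg
HSPA4L, chr4:128754103-128754129, plus strand: acaacagacgCTCAGTTgttcttaacc
DNAJC27, chr2:25168162-25168188, minus strand: ggtcttgagaCTCAGTTtccaacacct
Of the 8 lower members with an annotated 3' UTR, 3 carry a word there (DNAJC7, BAG5 and HSPA4L, the last with 3 copies of CTCAGTT), as do 11 of 51 members that did not pass the threshold. DNAJC27 carries one and was higher. Over all genes tested with a 3' UTR, 42.5% of the lower, 22.7% of those not past the threshold and 18.3% of the higher genes carry a word. These counts and shares were not set against the length of the 3' UTRs, which is 3273 bases in BAG5 and 7862 in HSPA4L. The part of the words in the change of any member was not tested.

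Cytosolic HSP90 was the most abundant chaperone class to fall. HSP90AA1 (GRCh37 chromosome 14, 102547079 to 102606036, minus strand), the stress-inducible isoform, held 2037 and 2134 CPM in the control libraries and 1759 and 1699 CPM in the PELP1 siRNA libraries. Its level fell by 17.1% (log2 change -0.27, SE 0.059, adjusted p = 0.00127). HSP90AB1 (GRCh37 chromosome 6, 44213903 to 44221625, plus strand), the constitutive isoform, held 1739 and 1790 CPM against 1483 and 1532 CPM. It fell by 14.5% (log2 change -0.23, SE 0.058, adjusted p = 0.00516). In each isoform both PELP1 siRNA libraries lay below both control libraries. The call of HSP90AA1 was lost without control library 2 (adjusted p = 0.148), and that of HSP90AB1 without control library 1 (adjusted p = 0.133) or 2 (adjusted p = 0.229). HSP90AA1 overlaps WDR20 on the opposite strand over 3.87% of its exon bases.

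Processed pseudogenes of HSP90 were counted beside their parent genes. HSP90AB3P was lower, at 341 and 347 CPM against 304 and 295 CPM (adjusted p = 0.0170). Its count was 19.3 to 20.5% of that of HSP90AB1 in each of the 4 libraries. Of the 50-base windows of the HSP90AB1 transcript, 22.5% occur letter for letter elsewhere in the genome, and 19.1% at HSP90AB3P. Reads of the gene and its pseudogene therefore cannot be told apart over those stretches. The call of HSP90AB3P was lost when scaled by total counts alone (adjusted p = 0.0625) and without control library 1 (0.263) or 2 (0.320). The other 4 HSP90 pseudogenes did not pass the threshold. With all pseudogenes left out, 4 of 63 members tested were higher and 8 lower, which is 19.0%, against 27.9% of all genes tested.

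Both HSP90 transcripts also hold CTCAGTT in their coding sequence at a stretch where the isoforms resemble each other. HSP90AB1 holds another CTCAGTT in exon 10 and a GCCTTGA in exon 8. The words were picked on these same fold changes, and their part in the fall of either isoform was not tested. The sites at the shared stretch are shown as a description.
HSP90AA1, chr14:102551650-102551676, minus strand: aagaaacattCTCAGTTtattggatat
HSP90AB1, chr6:44217850-44217876, plus strand: aagaagcattCTCAGTTcataggctat
Ahead of the 3' UTR, CTCAGTT stands in 12.2% of the transcripts of all genes tested, in 14.6% of those that were lower and in 9.15% of those that were higher. Among the members it stands there in 2 of 8 that were lower and in 4 of 51 that did not pass the threshold.

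The most abundant HSP70 gene did not pass the threshold. HSPA8, the constitutive HSP70 and the highest member per kilobase of transcript, held 2389 and 2556 CPM in the control libraries and 2421 and 2427 CPM in the others. The PELP1 siRNA values lay between the control values, and the log2 fold change was -0.028 (SE 0.059, adjusted p = 0.757), with a sign that turned to 0.020 when scaled by total counts and to 0.021 without control library 2. Within a library the count of HSP90AA1 was 0.853 and 0.835 times that of HSPA8 with control siRNA and 0.727 and 0.70 times with PELP1 siRNA. For HSP90AB1 the same ratio was 0.728 and 0.70 against 0.613 and 0.631. Neither ratio overlapped between the groups, as the libraries did not in 64.2% of all genes tested. Both HSP90 genes had already been called lower, so the ratios restate their fall and are no separate evidence. With 2 libraries a group no exact test of the ratios was run. Per kilobase of transcript the control means were 1092 CPM for HSPA8, 691 for HSP90AB1 and 646 for HSP90AA1, followed by the mitochondrial chaperonin HSPD1 at 217.

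**Figure D2:**
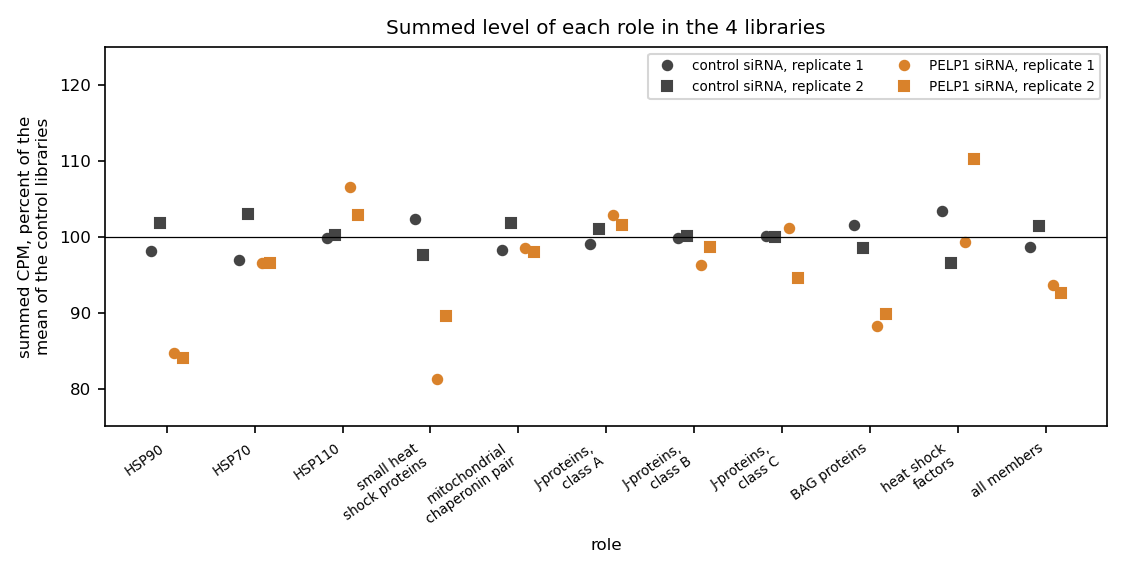
Summed CPM of the members of each role in the 4 libraries (y axis, as a percentage of the mean of the 2 control libraries; the axis does not start at 0). Dark points mark control siRNA and orange ones PELP1 siRNA. HSP90 sits at 84.7 and 84.1% with PELP1 siRNA, and HSP70 at 96.6 and 96.5%. The sum of the small heat shock proteins includes HSPB11 (IFT25 in GENCODE), which was taken by its symbol alone.

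Summed over the 7 HSP90 entries, the level was 4197 and 4355 CPM in the control libraries against 3620 and 3596 CPM. Over the 11 HSP70 members it was 3268 and 3474 CPM against 3256 and 3252 CPM. The HSP90 sums did not overlap between groups, and the HSP70 sums did not either, though the lower control sum stood close to those with PELP1 siRNA. All members together took 1.26 and 1.29% of the gene counts in the control libraries and 1.23 and 1.22% in the PELP1 siRNA libraries.

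Among the less abundant HSP70 members HSPA2 rose and HSPA1B fell. HSPA2 (GRCh37 chromosome 14, 65002623 to 65012891, plus strand), an HSP70 best known from the testis, rose from 14.3 and 14.7 CPM to 20.8 and 21.7 CPM (log2 change 0.55, SE 0.11, adjusted p = 3.62e-04). The groups were well apart, none of its windows occur elsewhere, and its largest adjusted p under any alternative was 0.0175. HSPA1B, a stress-inducible HSP70, fell from 43.3 and 46.8 CPM to 34.9 and 37.8 CPM (log2 change -0.31, adjusted p = 0.0113). Its call was lost without control library 1 (adjusted p = 0.0892) or 2 (0.294). HSPA1B shares 71.6% of its windows with its near-identical neighbour HSPA1A, which kept only 2 to 7 counts per library and was not tested. Reads from those windows align to both genes, so the level of each is uncertain. HSPA6, an HSP70 that is strictly heat-induced in most cells, had 14 to 21 counts per library and did not pass the threshold (log2 change -0.090, adjusted p = 0.876). Of its windows 56.1% occur elsewhere in the genome, so its level is uncertain too. Of the 8 HSP70 genes tested 1 was higher and 1 lower (25% called, against 27.9% of all genes tested).

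HSP110 proteins act as nucleotide exchange factors of HSP70. HSPA4L fell from 46.4 and 41.5 CPM to 39.3 and 30.6 CPM (log2 change -0.33, SE 0.10, adjusted p = 0.0212), and its level in PELP1 siRNA library 2 was well under that in library 1. The call was lost without PELP1 siRNA library 2 (log2 change -0.15, adjusted p = 0.102), without control library 1 (-0.25, 0.326), by total counts (0.0621) and by DESeq2 (0.0560). The stress-inducible HSPH1 stood at 302 and 306 CPM against 318 and 317 CPM (log2 change 0.063, SE 0.061, adjusted p = 0.479).

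Among small heat shock proteins HSPB8 fell and HSPB1 did not pass the threshold. HSPB8 (GRCh37 chromosome 12, 119609360 to 119662660, plus strand), which works with BAG3 in sending misfolded proteins to autophagy, held 134.9 and 129.2 CPM in the control libraries and 91.8 and 92.9 CPM in the PELP1 siRNA libraries. It fell by 30% (log2 change -0.52, SE 0.070, adjusted p = 6.19e-06), has no window elsewhere in the genome, carries neither word in its 3' UTR and kept an adjusted p of at most 0.00261 under every alternative. HSPB1, the abundant small heat shock protein Hsp27, held 92.3 and 86.5 CPM against 76.0 and 95.1 CPM (log2 change -0.064, adjusted p = 0.623). Its PELP1 siRNA libraries lay on both sides of the controls: the log2 fold change was 0.093 without PELP1 siRNA library 1 (adjusted p = 0.179) and -0.23 without library 2 (adjusted p = 4.06e-04). Of the 5 members with an HSPB symbol that were tested, 0 were higher and 1 was lower. That is 20% called, all of it lower, against 27.9% called and 15% lower of all genes tested. The 5 include HSPB11, which GENCODE lists as IFT25. The rule took HSPB11 by its symbol, so it need not be a small heat shock protein. HSPB11 did not pass the threshold (log2 change 0.15, adjusted p = 0.198). CRYAB (alpha-B crystallin), which is related to the small heat shock proteins, held a mean of 1.23 ± 0.212 CPM against 1.27 ± 0.143 CPM (SD, n = 2).

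BAG proteins are best known for binding the ATPase domain of HSP70 and releasing its nucleotide. Of the 6, all tested, 0 were higher and 2 lower (33.3% called, against 27.9% of all genes tested). BAG5 fell from 88.8 and 84.8 CPM to 71.3 and 65.2 CPM (log2 change -0.35, SE 0.077, adjusted p = 0.00158, and 0.122 without control library 1), and KLC1 overlaps 1.41% of its exon bases on the opposite strand. BAG3, the partner of HSPB8 and itself inducible by heat, fell from 154.7 and 154.4 CPM to 137.3 and 135.8 CPM (log2 change -0.18, SE 0.066, adjusted p = 0.0469). That call is the nearest to the threshold. It was lost with DESeq2 size factors (adjusted p = 0.0527), total counts (0.133), DESeq2's own test (0.0796), the replicate number as a block (0.0801), and without control library 1 (0.419) or 2 (0.387).

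**Figure D3:**
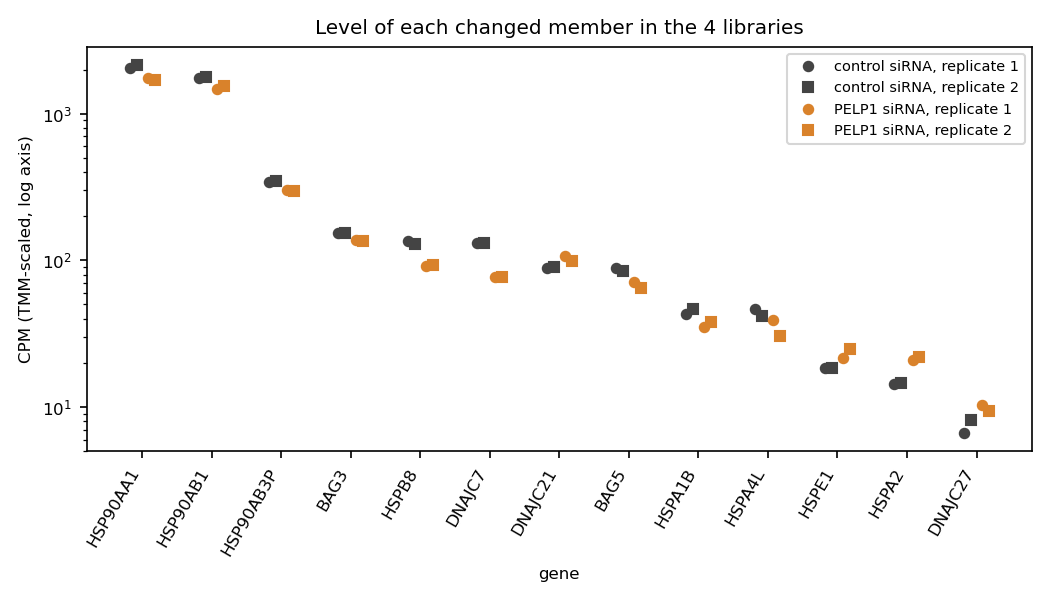
CPM (y axis, log scale) in each of the 4 libraries for the 13 changed members, ordered by their control level. Dark points are control siRNA and orange points PELP1 siRNA libraries; in every gene shown the 2 groups do not overlap, with DNAJC7 and HSPB8 the most clearly separated of the lower genes.

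J-proteins were the largest family, and most of them, as of all genes tested, did not pass the threshold. Of 43 listed, 35 were tested, and 2 were higher and 1 lower. These were 0 of 3 in class A, 0 of 7 in class B and 3 of 25 in class C. That is 8.57% called, against 27.9% of all genes tested, and the difference was not tested. Classes A and B resemble bacterial DnaJ in their domains, and class C shares only the J domain. DNAJA1 stood at 401 and 413 CPM against 427 and 419 CPM (log2 change 0.056, adjusted p = 0.529). DNAJB1, the heat-inducible Hsp40, stood at 228 and 235 CPM against 220 and 229 CPM (log2 change -0.046, SE 0.064, adjusted p = 0.628, and 0.0021 when scaled by total counts). In DNAJB1 the groups overlapped.

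DNAJC7 aside, the changed members of class C rose. DNAJC27, a Rab-like small GTPase with a J domain, held 6.65 and 8.12 CPM against 10.4 and 9.32 CPM (log2 change 0.41, SE 0.14, adjusted p = 0.0363). Its call was lost by DESeq2 (adjusted p = 0.170) and without control library 1 (0.436), control library 2 (0.0559) or PELP1 siRNA library 1 (0.0804). DNAJC21, a factor of large ribosomal subunit maturation, held 88.3 and 90.7 CPM against 106.2 and 98.95 CPM (log2 change 0.20, SE 0.073, adjusted p = 0.0461). That call was lost without a filter on low counts (adjusted p = 0.0546), by DESeq2 (0.0920), with the replicate block (0.0734) and without control library 1 (0.449) or 2 (0.312).

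The mitochondrial chaperonin is built from HSPD1 (Hsp60) and its lid HSPE1 (Hsp10), whose genes lie head to head. HSPE1 rose from 18.5 and 18.6 CPM to 21.5 and 24.9 CPM (log2 change 0.32, SE 0.10, adjusted p = 0.0245). HSPD1 stood at 477 and 495 CPM against 476 and 469 CPM (log2 change -0.040, SE 0.060, adjusted p = 0.656, and 0.0075 when scaled by total counts). HSPE1 has few countable positions: 37.2% of its windows and 41.3% of those of HSPD1 occur elsewhere, and the read-through gene HSPE1-MOB4 covers 10.5% of the bases in its exons. The call of HSPE1 was lost by DESeq2 (adjusted p = 0.103) and without control library 1 (0.212), control library 2 (0.201) or PELP1 siRNA library 2 (0.0930). By compartment, 1 of 10 mitochondrial members was higher and 0 lower, and 0 of 8 ER members passed the threshold. Of the 50 others tested, 3 were higher and 9 lower. That is 10% of the mitochondrial members called and 24% of the others, against 27.9% of all genes tested. Among the others 6% were higher and 18% lower, against 12.9% and 15% of all genes tested. The differences between compartments were not tested.

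The heat shock factors did not pass the threshold. HSF1 stood at 115.5 and 104.1 CPM against 111.6 and 127.2 CPM (log2 change 0.12, SE 0.077, adjusted p = 0.257), with overlapping groups. Its log2 change was 0.22 without PELP1 siRNA library 1 (adjusted p = 1.12e-04), 0.028 without PELP1 siRNA library 2 (0.708), 0.20 without control library 1 (0.372) and 0.047 without control library 2 (0.869). HSF2 stood at 31.3 and 33 CPM against 29.4 and 29.2 CPM (log2 change -0.13, adjusted p = 0.296). A core list of 14 major chaperones and heat shock factors holds inducible genes and also the constitutive HSPA8 and HSP90AB1, and leaves out HSPA6. Of these, 13 were tested: 1 was higher (HSPE1), 4 were lower (HSP90AA1, HSP90AB1, HSPA1B and BAG3) and 8 did not pass the threshold, with a median log2 fold change of -0.046. That is 38.5% called (7.69% higher and 30.8% lower), against 27.9% of all genes tested (12.9% and 15%), and the difference was not tested.

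**Figure D4:**
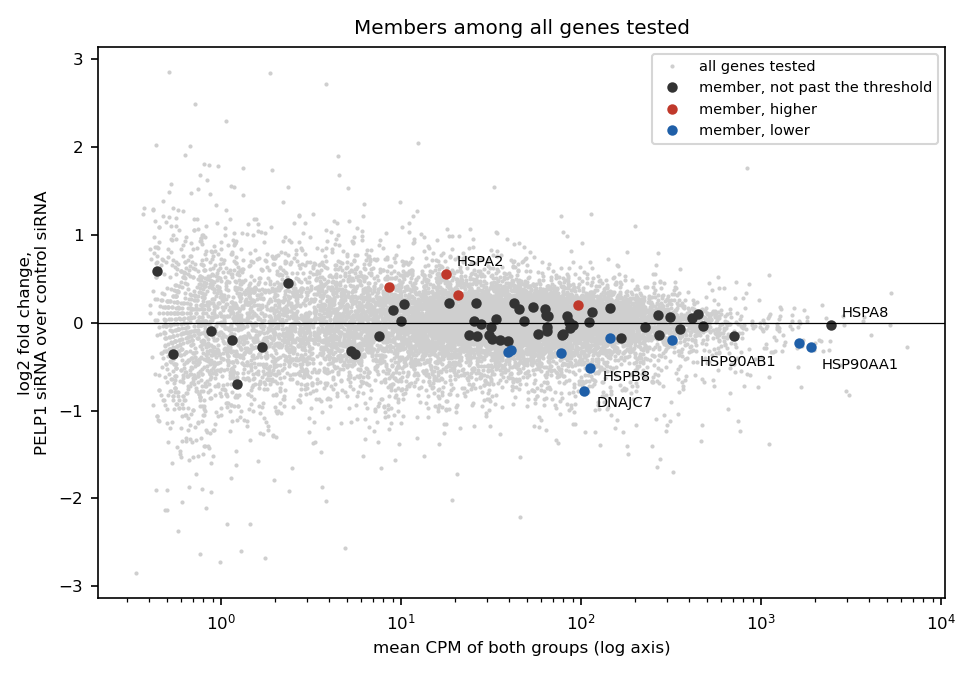
Log2 fold change (y axis) against the mean CPM of both groups (x axis, log scale) for all 13234 genes tested in pale grey, with the 68 members on top in black, red (higher) and blue (lower). The members lie within the body of the cloud, and HSP90AA1 and HSP90AB1 stand below HSPA8 at nearly the same level.

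Heat shock elements were looked for in the promoters because HSF1 acts through them. The search took the RefSeq windows from 250 bases before to 50 after each gene's start (GRCh38.p14, another build than that of the counts), which 65 of the members have, and 3 units in alternating orientation with no mismatch, GAANNTTCNNGAA or its reverse complement TTCNNGAANNTTC, so that both strands were covered. Among the members tested, 4 of 57 hold such an element (7.02%): HSPA8, DNAJA1, DNAJB6 and HSPA6. It stands in 30 of the 9162 promoters of all genes tested (0.327%) and in 133 of all 27305 RefSeq windows (0.487%). None of the 4 passed the threshold. Of the 12 changed members with a window, none holds one, which says only that these letters are not in it. The upstream stretches of 3 of them are given with the elements in capitals, on the strand of the gene, because they hold an exact element ahead of the start; that of DNAJA1 begins 3 bases into the transcript and is not shown.
HSPA8, chr11:123062149-123062386, minus strand: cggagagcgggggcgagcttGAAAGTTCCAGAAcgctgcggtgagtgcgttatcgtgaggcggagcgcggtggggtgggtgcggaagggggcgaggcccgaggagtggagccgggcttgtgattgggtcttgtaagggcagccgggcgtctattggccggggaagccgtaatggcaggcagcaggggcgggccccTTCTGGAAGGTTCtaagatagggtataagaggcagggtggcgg
DNAJB6, chr7:157336843-157336915, plus strand: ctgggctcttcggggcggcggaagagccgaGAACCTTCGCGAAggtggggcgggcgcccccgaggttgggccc
HSPA6, chr1:161524436-161524508, plus strand: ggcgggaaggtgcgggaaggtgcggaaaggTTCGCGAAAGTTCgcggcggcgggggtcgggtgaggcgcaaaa
HSPA8 holds 2 elements, the first letter of which lies 230 and 55 bases ahead of the start. HSPA8 was the most abundant member and HSPA6 among the least abundant of those tested, and both hold the element. The level of HSPA6 is uncertain, as 56.1% of its windows occur elsewhere in the genome. A match is a description of the sequence and not a binding site.

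Over 7 lists of other co-chaperones and folding factors, 60 of 61 genes were tested, and 7 were higher and 8 lower (25%, against 27.9% of all genes tested), with a median log2 fold change of 0.026. Of 20 HSP90 co-chaperones, 0 were higher and 3 lower. That is 15% called, all of them lower, against 27.9% called and 15% lower of all genes tested. TTC4, a tetratricopeptide co-chaperone, fell from 5.88 and 5.49 CPM to 3.35 and 3.0 CPM (log2 change -0.84, SE 0.18, adjusted p = 0.0012). TOMM34, which links HSP70 and HSP90 to mitochondrial import, fell from 150.8 and 153.0 CPM to 120.5 and 124.1 CPM (-0.31, adjusted p = 0.00111, and 0.0682 and 0.0913 without control library 1 and 2). The third was CHORDC1, named after its values were seen (-0.31, adjusted p = 0.0148). Of its windows 27.5% occur elsewhere in the genome, and its values under the alternatives are not given here. TTC4 carries both words in its 3' UTR, and the read-through gene MROH7-TTC4 covers 53.0% of its exon bases on the same strand, so its level is uncertain.

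Of 14 HSP70 co-chaperones outside the naming rule, 2 were higher and 2 lower (28.6% called, against 27.9% of all genes tested). SGTA, which hands on membrane proteins with a tail anchor, rose by 0.22 on the log2 scale and HSCB, the J-protein of iron-sulphur cluster assembly, by 0.32. HYOU1, an HSP110-like exchange factor of the ER, fell by 0.28 and carries a word in its 3' UTR. The call of SGTA was lost without control library 1 (adjusted p = 0.252) or 2 (0.290), that of HYOU1 likewise (0.0682 and 0.178), and that of HSCB without control library 1 (0.162), control library 2 (0.231) or PELP1 siRNA library 2 (0.140, with a log2 change of 0.19). A gene on the opposite strand overlaps 20.2% of the exon bases of HSCB.

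The cytosolic chaperonin TRiC is a ring of 8 subunits that folds actin and tubulin. Of these subunits 1 was higher and 1 lower (25% called, against 27.9% of all genes tested). CCT3 fell from 504 and 518 CPM to 367 and 385 CPM (log2 change -0.44, SE 0.062, adjusted p = 8.37e-06) and carries a word in its 3' UTR, CCT4 rose by 0.17 (adjusted p = 0.0372), and the other 6 did not pass the threshold. The call of CCT4 was lost without control library 1 (0.517) or 2 (0.261). Of the 6 subunits of prefoldin, which delivers actin and tubulin chains to TRiC, 3 were higher and 0 lower, where 12.9% of all genes tested were higher. PFDN5, named after its values were seen, rose by 0.19 (adjusted p = 0.0387), and its values under the alternatives are not given here. The others were VBP1, which rose by 0.24 (adjusted p = 0.0132), and PFDN1, which rose by 0.20 (adjusted p = 0.0329). Both calls were lost without control library 1 (0.453 and 0.351) or 2 (0.0844 and 0.354), and 16.1% of the windows of PFDN1 occur elsewhere.

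HSBP1, a small protein that binds HSF1 and holds back its activity, rose from 171 and 175 CPM to 226 and 227 CPM (log2 change 0.39, SE 0.064, adjusted p = 7.17e-05) and was called under all alternatives. The ubiquitin gene UBB fell by 0.32 (adjusted p = 0.00262, 0.0923 without control library 2, and -0.18 on the log2 scale without PELP1 siRNA library 2), and 34.5% of its windows occur elsewhere in the genome. The mitochondrial protease LONP1 fell by 0.19 (adjusted p = 0.0327, 0.376 and 0.291 without control library 1 and 2, and -0.12 on the log2 scale without PELP1 siRNA library 1). Of the 10 ER chaperones set beside the members for comparison, 0 were higher and 1 lower (10.0% called, against 27.9% of all genes tested). That was CANX (calnexin), a lectin chaperone, at -0.29 on the log2 scale (adjusted p = 0.00207, 0.112 without control library 2, and -0.18 on the log2 scale without PELP1 siRNA library 2). The ER list had a median of -0.054 and the members one of -0.045, and the difference between these lists was not tested.

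**Figure D5:**
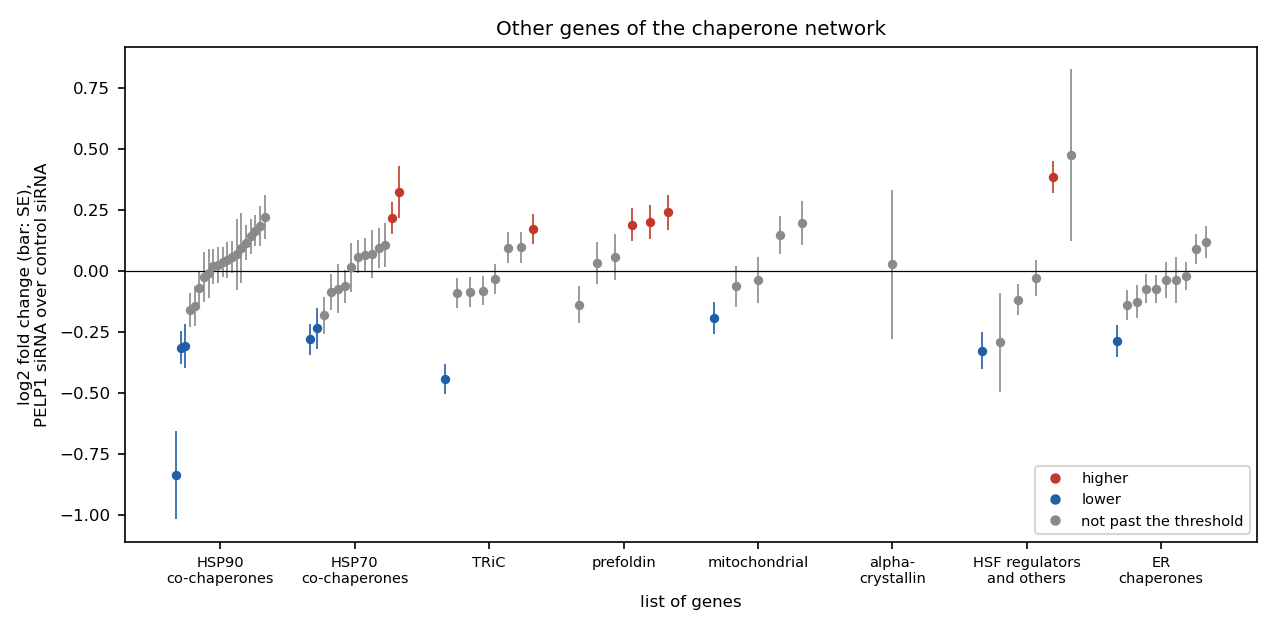
Log2 fold change of PELP1 siRNA over control siRNA (y axis) for the other genes of the chaperone network, one point per gene with its SE, by list (x axis). Red marks higher, blue lower and grey not past the threshold; the lowest point is TTC4 at -0.84 and prefoldin has 3 red points.

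Among the members without enough counts to be tested, 14 in all, the highest count in a library was 13. DNAJA1P5, DNAJB3, DNAJB8 and HSPA7 had 0 counts in every library, which allows up to 0.134 to 0.158 CPM per library (3 counts, counting error only). The other 10 were HSPA1A, HSPA12B, HSPB2, HSPB3, HSPB9, DNAJA4, DNAJB7, DNAJB13, DNAJC5B and DNAJC5G. In 18 of the 82 members at least 10% of the 50-base windows occur elsewhere in the genome. They include HSPA1A, HSPA1B, HSPA6, HSP90AA1, HSP90AB1, HSPA8, HSPD1 and HSPE1. The levels of these genes are uncertain for that reason.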

How the data were processed

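The authors deposited read counts per gene symbol for 4 libraries, as whole numbers without normalization. Per the submitters' processing notes, CASAVA 1.8.2, TopHat2 2.0.8b and HTSeq were used with hg19 (GRCh37); the sources used here do not give the HTSeq version, strand setting or annotation release. Rows that name no gene were left out: of the uniquely aligned reads, 11.6 to 12.8% lay outside genes and 1.44 to 1.50% were ambiguous, while 26.3 to 27.5% of all alignments were not unique.

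Of 23228 symbols, 13234 passed filterByExpr (minimum count 10, minimum total count 15). After TMM scaling, edgeR 4.0.16 in R 4.3.3 fitted its robust quasi-likelihood model on group alone, with p-values adjusted by Benjamini-Hochberg over all genes tested, and called at an adjusted p under 0.05. Values are TMM-scaled CPM and single-gene adjusted p-values come from this test unless DESeq2 (1.42.0) or limma-voom (limma 3.58.1) is named. The biological coefficient of variation was 5.23%. Simulated counts with known changes were used to test the fit.

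The members and lists were chosen with earlier results of these data known. Named are all called members, a core list of 14 major chaperones and heat shock factors, and up to 2 called genes per direction of each other list; the untested members, DNAJB6, HSPA6, CRYAB, CHORDC1 and PFDN5 were added with their values known. The result of 1 gene that the rule names is not reported here. Positions, transcript lengths and 3' UTRs come from GENCODE (v44lift37, all 82 members matched), promoters from RefSeq (GRCh38.p14), and 50-base windows of each transcript were matched exactly against the GRCh37 chromosomes. Alternatives were DESeq2 size factors, total counts, no filter, a stricter filter (5 CPM in 2 libraries), DESeq2, limma-voom, a non-robust edgeR fit, the replicate number as a block, and leaving out each library.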

Additional observations from a re-analysis of the deposited data

How the results depend on the processing

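Leaving out 1 library gives its group a single sample, whose spread is then taken from the other group. Over these 4 fits the count of all genes higher ranged from 528 to 2733 and of all genes lower from 949 to 2819, and the members from 1 to 10 higher and from 4 to 18 lower. DESeq2 called 1133 of all genes higher and 1 member higher, with 7 members lower, and total counts gave 7 members higher. The fall of PELP1 passed under every alternative. With the replicate number as a block, 1613 genes were higher and 1968 lower, and 3 members higher and 8 lower. BAG3, DNAJC21, CCT4 (adjusted p = 0.0601) and PFDN1 (adjusted p = 0.0571) lost their calls. No other named gene changed its call, with CHORDC1, PFDN5 and CRYAB left aside. The libraries share only a number, and deviations of those with the same number had a correlation of -0.048 across genes. Signs turned only in genes that did not pass the threshold: HSPA8 (0.020 by total counts, and from -0.076 to 0.021 over the fits without 1 library), HSPB1 (from -0.23 to 0.093 over the same fits), DNAJB1 (0.0021 by total counts) and HSPD1 (0.0075 by total counts). DESeq2's test also ended the calls of CCT4 (adjusted p = 0.0521), PFDN1 (0.0627), LONP1 (0.0554) and HSCB (0.0996), and total counts that of LONP1 (0.110). The cause of these changes was not tested. Of the 13 changed members, the stricter filter, limma-voom and the fit that is not robust each kept 13, and DESeq2 size factors kept 12. Depth limits the 14 untested members and those near 1 CPM, such as HSPA6. Of the windows of HSPA6, 56.1% also occur elsewhere in the genome.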
